A study of Mus musculus with 155 samples.

Results

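The genes of the DNA replication machinery were followed through the RNA-seq of mouse KH2 embryonic stem cells (ESCs) and of cells differentiated from them. The 58 genes were taken from a list of licensing factors, helicase subunits, polymerases, clamp and clamp loader subunits, single-strand binding proteins, fork proteins, ribonucleotide reductase and the replication-coupled histone chaperone CAF-1, out of 55471 genes in the count tables, by name and role. All 58 were found in the ESC, RA and OPC tables by their Ensembl identifiers. They fell into 16 subgroups by role. The genes *Mcm5*, *Orc6*, *Gins2*, *Gins3*, *Gins4*, *Cdt1* and *Rnaseh2a* lie on chromosome 8, which the study left out because of a possible duplication in all clones. Values for these 7 come from a separate fit with chromosome 8 kept and are named as such.

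Every group carried a transgene and received doxycycline (Dox). The lines were clones of KH2 with a single extra, Dox-inducible copy of SNAP-HA-tagged H3.3, a histone variant, in its wild-type form (WT-H3.3), with lysine 27 changed to methionine (H3.3K27M, the change found in diffuse midline glioma) or with lysine 27 changed to leucine (H3.3K27L). WT-H3.3 ESCs were also grown with GSK343, which blocks the enzyme of PRC2, the complex that methylates H3 at lysine 27. The ESCs, kept on gelatin in LIF and 2i inhibitors, gave 32 libraries, 2 replicates for each of the 4 groups at each of 4 times of Dox (4 h, 8 h, 24 h and 72 h). The RA cells, which the labels call ESC-derived neural progenitors, were grown with 1 µM retinoic acid for 4 days without LIF and 2i, and Dox was added 24 h after the start. Each of the 3 lines gave 1 RA library at 24 h and 1 at 72 h of Dox. For the oligodendrocyte progenitor cell (OPC) libraries, WT-H3.3 and H3.3K27M ESCs formed embryoid bodies, received retinoic acid and purmorphamine and were replated and kept for at most 30 days in a medium for OPCs, and each line gave 1 library at 24 h and 1 at 72 h of Dox. The question put to each comparison was whether the mutant histones or the change of cell state altered the expression of the replication machinery.

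Replication starts at sites bound by the origin recognition complex (ORC). ORC, Cdc6 and Cdt1 load the MCM2-7 ring onto DNA in G1 phase, and the kinase of Cdc7 and Dbf4, with Mcm10, Ticrr, Topbp1, Cdc45 and the GINS complex, turns the ring into a moving helicase at the start of S phase. Polymerase alpha with its primase lays down primers, RFC loads the sliding clamp Pcna, polymerases epsilon and delta copy the leading and the lagging strand, and RPA covers single-stranded DNA. Many of these genes are induced at the entry into S phase by E2F factors, so their RNA is high in cycling cells such as ESCs and falls when cells leave the cell cycle. In bulk samples such as these, fewer cycling cells and less RNA per cell cannot be told apart.

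The promoters of 49 of the 58 genes were in a RefSeq table (mouse build GRCm38.p6) that holds the 250 bases before and the 50 bases after each annotated start. The letters TTTCGCGC or TTTGGCGC, known forms of the E2F site, were searched on both strands and occurred in 12 of the 49 (24.5%), against 0.929% of the 27025 genes in the table. The 12 were *Cdt1*, *Lig1*, *Mcm3*, *Mcm5*, *Mcm6*, *Mcm7*, *Mcm8*, *Orc1*, *Pola1*, *Pole2*, *Rfc3* and *Topbp1*, and they included 4 of the 5 MCM2-7 genes with an entry. The CCAAT box letters CCAAT were present in 27 of the 49 (55.1%, against 41.1% of all genes) and the CHR letters TTTGAA in 8 (16.3%, against 20.2%). The genes without an entry were *Gins1*, *Gins2*, *Gins4*, *Mcm4*, *Pole*, *Prim2*, *Rfc2*, *Rnaseh2b* and *Tipin*. The upstream sequences of 3 genes are shown because the MCM genes, *Orc1* and *Orc4* gave different results in the OPC libraries. They run 5′ to 3′ over the 250 bases before the start, with the letters of the searched motifs in capitals. *Mcm6*, a helicase subunit, lies on the minus strand with its window at chr1:128359706-128359955. *Orc1*, the ORC subunit whose level follows the cell cycle, lies on the plus strand at chr4:108579204-108579453. *Orc4*, another ORC subunit, has several annotated starts on the minus strand, and the window at chr2:48950082-48950331 is printed, in which none of the motifs occurred. Another *Orc4* window holds CCAAT letters, so that *Orc4* counts among the 27.
Mcm6: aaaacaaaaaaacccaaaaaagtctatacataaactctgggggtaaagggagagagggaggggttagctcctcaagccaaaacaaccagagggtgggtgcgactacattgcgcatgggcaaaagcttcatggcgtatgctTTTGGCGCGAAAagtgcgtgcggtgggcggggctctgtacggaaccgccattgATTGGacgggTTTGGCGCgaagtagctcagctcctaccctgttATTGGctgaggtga
Orc1: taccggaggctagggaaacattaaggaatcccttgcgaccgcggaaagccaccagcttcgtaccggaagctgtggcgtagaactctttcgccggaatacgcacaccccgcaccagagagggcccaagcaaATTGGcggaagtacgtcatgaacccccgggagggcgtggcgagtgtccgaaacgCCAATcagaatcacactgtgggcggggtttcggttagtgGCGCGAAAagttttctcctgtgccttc
Orc4: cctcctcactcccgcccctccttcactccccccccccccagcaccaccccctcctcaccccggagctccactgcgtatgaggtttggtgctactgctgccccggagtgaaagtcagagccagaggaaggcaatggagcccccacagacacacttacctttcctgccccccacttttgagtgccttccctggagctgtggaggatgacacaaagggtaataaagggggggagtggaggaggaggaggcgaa
In the *Mcm6* sequence the 12 capitals that begin 110 bases before the start hold both E2F forms, which overlap, and another E2F form begins 47 bases before it. In *Orc1* an E2F form begins 27 bases before the start and CCAAT letters stand at 120 and 66 bases before it. A match of letters is a description of the window and was not tested as a binding site.

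Library depth ranged from 68378 to 21161392 counts in the ESCs, from 2239137 to 22269533 in the RA libraries and from 7499258 to 12387113 in the OPC libraries. The lowest total was that of H3.3K27L replicate 2 at 72 h, and the next lowest, 1247934 counts, that of replicate 2 at 8 h with GSK343. Values are in CPM, the counts of a gene scaled to a common library total with TMM factors, fold changes come from edgeR's quasi-likelihood test, and a gene is called when its Benjamini-Hochberg adjusted p over all genes tested is below 0.05. The markers went with the ESC label, *Pou5f1*, a factor of pluripotent cells, being at 312 CPM or more in all 32 ESC libraries and at 4.86 CPM or less in the others. In the RA libraries the retinoic acid response gene *Cyp26a1* reached 234 to 866 CPM, while the neural progenitor factor *Pax6* reached 10.4 to 33.7 CPM. In the OPC libraries *Olig1* and *Olig2* were high (152 to 655 and 274 to 988 CPM), but the OPC-defining genes *Sox10* and *Gpr17* were at or below 3.36 and 0.916 CPM, and *Pdgfra* was at 15.5 and 23.1 CPM in WT-H3.3 and at 0.535 and 0.770 CPM in H3.3K27M. These libraries are therefore called OPC cultures.

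**Figure D1:**
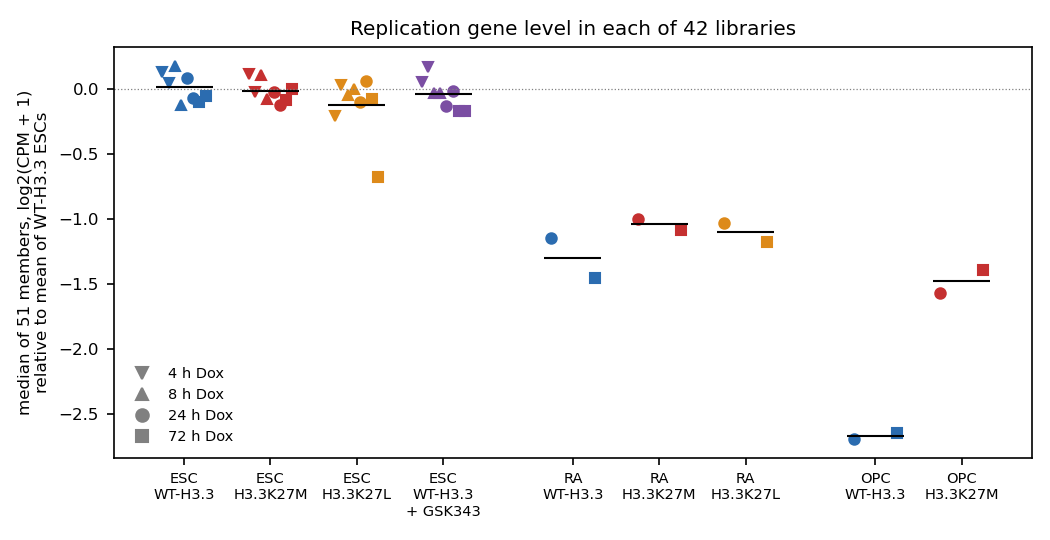
Median over the 51 members outside chromosome 8 of log2(CPM + 1) minus the mean of the 8 WT-H3.3 ESC libraries (vertical axis, log2 units), by stage and line; each point is a library, its shape gives the hours of Dox, and horizontal bars are group means. ESC libraries lie between -0.21 and 0.18 except H3.3K27L replicate 2 at 72 h (-0.68), RA libraries lie lower, down to -1.45 for WT-H3.3 at 72 h, and the OPC cultures at -2.69 and -2.64 for WT-H3.3 against -1.57 and -1.39 for H3.3K27M.

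Across all 42 libraries the replication genes were highest in the ESCs, lower in the RA libraries and lowest in the WT-H3.3 OPC cultures, as the plot of library medians shows. On the log2(CPM + 1) scale the 32 ESC libraries had medians within -0.21 and 0.18 of the WT-H3.3 mean, apart from the shallow H3.3K27L library at -0.68. The 6 RA libraries were lower than all of these, at -1.14 and -1.45 in WT-H3.3 and at -1.03 and -1.18 in H3.3K27L at 24 and 72 h, while H3.3K27M was the least low at both times (-1.08 at 72 h). The OPC cultures of WT-H3.3 were at -2.69 and -2.64 and those of H3.3K27M at -1.57 and -1.39, so the lines did not overlap. ESC, RA and OPC libraries were made in separate experiments, and the stage cannot be told apart from the experiment.

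In the ESCs, H3.3K27M left the replication genes without a call. None of the 51 members tested was called in either direction over the 4 Dox times (8 libraries against 8), beside 2 of 14012 genes (0.0143%), and their median log2 fold change was -0.01 with that of all genes at 0.00. By DESeq2 the count was also 0, and at an unadjusted p below 0.05 it was 1. The member with the lowest p was *Mcm6*, at 563 to 698 CPM (median 604) in H3.3K27M and at 504 to 622 CPM (median 544) in WT-H3.3. The ranges overlapped, and the log2 fold change was 0.17 ± 0.08 (SE, unadjusted p = 0.036, adjusted p = 0.391). *Mcm3*, the next of the helicase subunits, was at 469.5 to 647 CPM (median 546) against 468 to 552 CPM (median 507), with a log2 fold change of 0.14 ± 0.08 (adjusted p = 0.488). With the replicate number as a block, which paired H3.3K27M with WT-H3.3, 32 genes of all those tested were called in place of 2, and again 0 members. The 5 MCM2-7 genes had a median of 0.11, the 3 RPA genes of -0.20 and the 5 ORC genes of -0.12.

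GSK343 likewise gave no call among the members, beside 0% of the 14012 genes by edgeR, 678 of which had an unadjusted p below 0.05 (4 of the members), and by DESeq2 again 0 members. The member median was -0.02. *Ticrr*, which links the S-phase kinase to helicase activation, had the lowest p at a log2 fold change of -0.48 ± 0.18 (adjusted p = 0.973), with 123 to 244 CPM (median 148) in the treated and 148 to 334 CPM (median 237) in the untreated WT-H3.3 libraries. *Mcm10*, which joins the helicase at the start of S phase, followed at -0.21 ± 0.08, with 160 to 196 CPM (median 172) against 180.5 to 227 CPM (median 207), the same adjusted p and overlapping ranges.

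In H3.3K27L ESCs 2 of the 51 members rose and 0 fell, beside 3.07% of all genes higher and 5.07% lower. *Wdhd1*, which tethers polymerase alpha to the helicase, rose by a log2 fold change of 0.54 ± 0.13 (adjusted p = 0.0115). Its level was 124 to 237 CPM (median 195) in H3.3K27L and 107 to 162 CPM (median 127) in WT-H3.3, and the 4 libraries of H3.3K27L replicate 1, at 208 to 237 CPM, stood above all WT-H3.3 libraries while those of replicate 2, at 124 to 182 CPM, overlapped them. *Mcm10* rose by 0.30 ± 0.08 (adjusted p = 0.0183), with 156 to 288 CPM (median 259.9) in H3.3K27L and 180.5 to 227 CPM (median 207) in WT-H3.3. Only 1 of its H3.3K27L libraries lay inside or below the WT-H3.3 range, the shallow replicate 2 at 72 h, in which *Mcm10* had 12 counts. The median of the 51 members was -0.07. Both calls rested on single libraries and on the fit. Without H3.3K27L replicate 1 at 72 h neither *Wdhd1* (0.46, adjusted p = 0.211) nor *Mcm10* (0.16, adjusted p = 0.565) was called and 2 other members were lower, and *Mcm10* also lost its call without WT-H3.3 replicate 1 at 4, 8, 24 or 72 h or H3.3K27L replicate 2 at 8 h. With only the compared libraries in the fit no member was called (adjusted p = 0.0654 for *Wdhd1* and 0.0870 for *Mcm10*), and with a block of crossed replicate numbers, chosen after seeing the data, 4 were higher and 2 lower.

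Among the 7 chromosome 8 genes, 3 fell and 0 rose in H3.3K27L ESCs in the fit with that chromosome kept, in which 14.7% of the 807 genes tested on chromosome 8 were lower and 0.62% higher, beside 5.49% and 3.28% of all 14819 genes. The 3 were *Rnaseh2a*, the catalytic subunit of ribonuclease H2, by 0.56 (log2, with SE 0.14 and adjusted p = 0.0108), *Gins4* by 0.54 (SE 0.13, adjusted p = 0.0114) and *Orc6* by 0.40 (SE 0.11, adjusted p = 0.0257). *Gins4* was at 52.1 to 96.4 CPM (median 88.6) in H3.3K27L and at 94.3 to 173 CPM (median 127) in WT-H3.3, with a single pair of libraries overlapping in range. *Gins2* (-0.56) and *Mcm5* (-0.25) were not called. Whether the number of copies of chromosome 8 differs between the clones was not tested.

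Gene length moved with these small ESC differences. Over the 51 members, Spearman's rho between exonic length and log2 fold change was 0.59 for H3.3K27L, 0.46 for H3.3K27M and -0.42 for GSK343, and over the 12810 genes with a length it was 0.31, 0.25 and -0.32. Both library kits of the study, one of which reads only the 3′ end of a transcript, are named without saying which library was made with which, and the part of length in these results was not tested. With an offset for gene length 1 member was called for H3.3K27L.

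In the RA libraries 1 member passed the test in each comparison with H3.3K27L and none in that of H3.3K27M with WT-H3.3. For H3.3K27M against WT-H3.3, 0 of 51 members were called, beside 0.0163% of 12233 genes, with a member median of 0.09 (all genes 0.02), 1 member at an unadjusted p below 0.05 and 0 by DESeq2. *Dna2*, a nuclease that trims Okazaki fragments, had the lowest p and read 29.9 and 36.3 CPM in WT-H3.3 at 24 and 72 h and 48.5 and 56.0 CPM in H3.3K27M (log2 fold change 0.56 ± 0.18, adjusted p = 0.576). The helicase subunit *Mcm7* read 228 and 122 CPM in WT-H3.3 and 315 and 161 CPM in H3.3K27M (0.33 ± 0.15, adjusted p = 0.811). At each Dox time the H3.3K27M library was the higher for both genes. As plain counts, 46 of the 51 members were higher in H3.3K27M at 24 h and 36 at 72 h. In H3.3K27L 38 and 39 were higher, and both mutants share the WT-H3.3 libraries. The share of all genes higher at each time was not counted, so these numbers are no result about the members. The study, which called the RA times similar and pooled them, tied its genes higher in H3.3K27M RA cells to DNA replication and repair. These counts come from the same libraries and are not independent evidence of that theme.

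For H3.3K27L against WT-H3.3 in the RA libraries, 1 member rose and 0 fell, beside 3.46% of all genes higher and 3.5% lower. *Wdhd1*, also called in the ESCs, read 83.2 and 72.6 CPM in WT-H3.3 and 115 and 135 CPM in H3.3K27L at 24 and 72 h, a log2 fold change of 0.65 ± 0.16 (adjusted p = 0.0351). Both H3.3K27L libraries were above both WT-H3.3 libraries. The median of the members was 0.11. In the direct comparison of the mutants, 0 members were higher in H3.3K27M and 1 was lower, beside 5.71% and 6.84% of all genes. It was *Rnaseh2b*, a subunit of ribonuclease H2, at 40.9 and 43.5 CPM in H3.3K27M and 61.0 and 67.8 CPM in H3.3K27L (-0.69 ± 0.20, adjusted p = 0.0427). Neither call was made by DESeq2 or with the 2 Dox times pooled. Without the H3.3K27M library of 24 h both counts were 0. When the WT-H3.3 library of 24 h was left out, 4 members were called between H3.3K27L and WT-H3.3, and when either WT-H3.3 library was left out, 7 between the mutants. The 5 markers of extraembryonic endoderm tested were all higher in H3.3K27L than in WT-H3.3 RA libraries (1439 to 5966 against 562 to 3013 CPM, summed over 6). Of the pluripotent cell markers 3 of 6 were higher and 0 lower. Of those of the retinoic acid response and neural progenitors 1 of 7 was higher and 2 were lower. Lower were also 1 of 6 fibroblast and 1 of 2 neuron markers, while the 1 OPC marker tested was higher. No astrocyte or oligodendrocyte marker was called. The part of these other markers in the member values was not tested.

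Between the RA libraries of 72 and 24 h of Dox, 20 of the 51 members rose and 17 fell, beside 33.3% of all genes higher and 36.2% lower, with a member median of 0.13. These shares were near those of all genes, and the counts are no result about the members. Both CAF-1 genes fell (median -2.31), as did 3 of 4 polymerase alpha-primase genes (median -0.73), while 4 of 5 genes of Okazaki fragment maturation and ribonuclease H2 rose (median 0.71). Of the RFC genes 3 rose and 1 fell, of the polymerase epsilon genes 2 rose and 1 fell, and of the MCM2-7 genes 3 rose and 1 fell. Both kinase genes rose (median 0.95), while the ribonucleotide reductase genes *Rrm1* and *Rrm2* fell (median -0.48).

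The genes with the lowest p in each direction are given by library. That the 3 lines repeat the change in them follows from this choice and adds no support. *Rpa2*, a subunit of the single-strand binding protein RPA, read 41.3, 53.9 and 46.2 CPM at 24 h (in the order WT-H3.3, then the methionine, then the leucine line) and 224, 185 and 199 CPM at 72 h (5.46-fold, adjusted p = 2.37e-08). *Lig1*, the ligase that joins Okazaki fragments, read 153, 186 and 177 CPM and then 622, 474 and 651 CPM (4.27-fold, adjusted p = 1.25e-07). *Rnaseh2c*, the small subunit of ribonuclease H2, read 15.9, 19.4 and 21.1 CPM and then 59.6, 55.5 and 62.9 CPM (4.00-fold, adjusted p = 1.83e-07). For each of these genes all 3 libraries of 72 h were above all 3 of 24 h.

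*Chaf1a*, the large subunit of CAF-1, which deposits H3 and H4 behind the fork, read 101, 118 and 106 CPM at 24 h and 5.35, 8.70 and 6.75 CPM at 72 h (12.1-fold lower, adjusted p = 8.04e-09). *Pole*, the catalytic subunit of polymerase epsilon, read 86.2, 120 and 102 CPM and then 16.4, 19.8 and 20.0 CPM (4.28-fold lower, adjusted p = 1.08e-07). *Ticrr* read 65.5, 74.2 and 56.1 CPM and then 8.79, 9.79 and 17.3 CPM (4.25-fold lower, adjusted p = 3.46e-06). Subunits of the same complex thus differed in direction, since *Pole3* and *Pole4*, the small histone-fold subunits of polymerase epsilon, rose by 1.77 and 1.44 while *Pole* fell, and *Rfc2*, *Rfc3* and *Rfc5* rose by 0.84 to 1.26 while *Rfc4* fell by 2.42 (log2 scale).

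The same members stood apart in another comparison. Between the OPC cultures and the ESCs, a contrast that shares no library with the RA time comparison, the log2 fold changes of the 51 members followed those of RA 72 h against 24 h with Pearson's r = 0.84 and Spearman's rho = 0.78, beside 0.54 and 0.52 over the 12163 genes tested in both. These are descriptions across genes, which are not independent replicates. *Chaf1a*, *Ticrr*, *Pole* and *Rfc4* were the 4 lowest in both, as the plot of the 2 comparisons shows. Exonic length was related to the RA time difference with rho = -0.33 over 11650 genes and -0.18 over the members, and the rho between CPM and length within a library was 0.275 to 0.322 at 24 h of RA and 0.112 to 0.123 at 72 h, with 0.0463 to 0.208 in the ESCs and 0.141 to 0.151 in the OPC cultures. The Dox time, the time of differentiation and the library kit cannot be told apart in these 6 libraries. Markers were tested over the same time, in which 33.3% of all genes were higher and 36.2% lower. Of the fibroblast markers 4 of 6 were lower and 0 higher. Of those of the retinoic acid response and neural progenitors 3 of 7 were higher and 3 lower, of extraembryonic endoderm 2 of 5 higher and 2 lower, and of pluripotent cells 1 of 6 lower. On so few genes these counts are not set apart from the shares of all genes. The part of the markers in the member values was not tested.

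**Figure D2:**
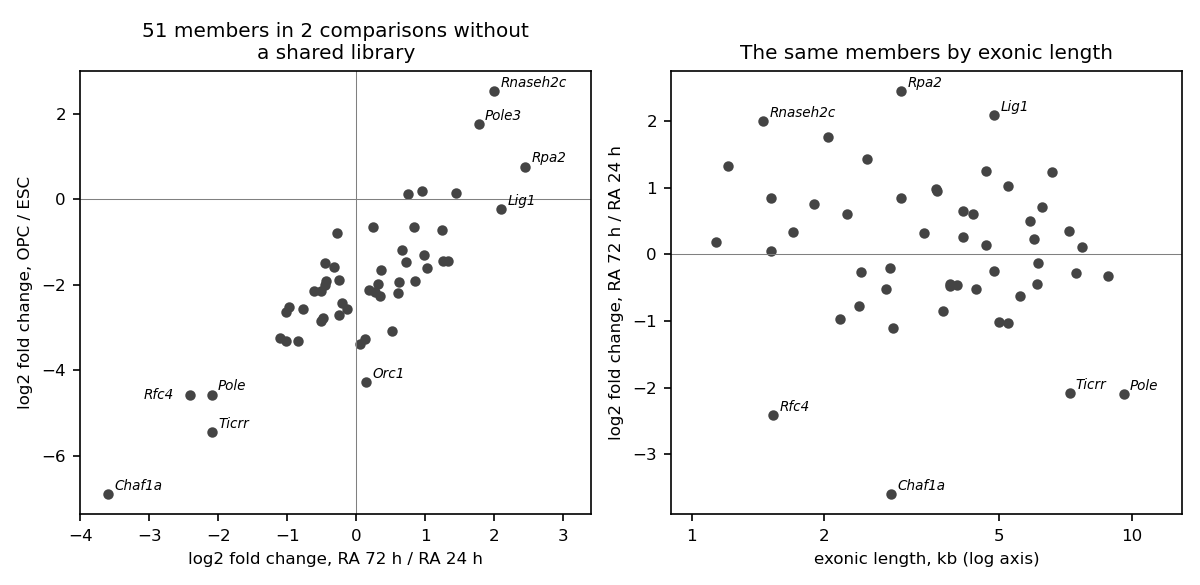
Left, log2 fold change of the 51 members in RA libraries of 72 h over 24 h of Dox (horizontal) and in OPC cultures over ESCs (vertical); right, the RA values (vertical, log2) against exonic length in kb on a log axis. Each point is a gene; *Chaf1a*, *Ticrr*, *Pole* and *Rfc4* are lowest in both comparisons and *Rnaseh2c*, *Pole3* and *Rpa2* are the 3 highest in the OPC comparison.

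Against the ESCs of the same Dox time, the RA libraries of 24 h had lower levels over nearly the whole machinery. With the 3 lines together, 44 of 51 members fell and 0 rose, beside 32.2% of all genes lower and 34.2% higher, with a member median of -1.01 (all genes 0.02). All 5 MCM2-7 genes fell (median -1.13), as did all 3 polymerase delta (-1.22), all 4 polymerase alpha-primase (-1.04), all 3 RPA (-1.01) and 4 of 5 ORC genes (-1.08). Within the subgroups the values ran from *Mcm7* (-0.95) to *Mcm3* (-1.28) for MCM2-7, from *Orc4* (-0.22) to *Orc1* (-1.57) for ORC, from *Cdc45* (-1.15) to *Gins1* (-1.61), from *Pola2* (-0.41) to *Prim1* (-1.34), from *Pold3* (-1.04) to *Pold2* (-1.32), from *Pole3* (-0.17) to *Pole2* (-1.64), from *Rfc3* (-0.16) to *Rfc5* (-1.46), from *Rpa3* (-0.94) to *Rpa2* (-1.50), from *Rnaseh2c* (-0.04) to *Dna2* (-1.53), from *Topbp1* (-0.48) to *Tipin* (-1.67), from *Rrm1* (-0.38) to *Rrm2* (-1.18) and from *Chaf1a* (-0.16) to *Chaf1b* (-1.18). *Pcna* (-1.44), *Cdc6* (-0.70), *Dbf4* (-0.70), *Mcm8* (-0.64) and *Mcm10* (-1.79) fell as well. The members not called were *Orc4*, *Cdc7*, *Chaf1a*, *Pole3*, *Rfc3*, *Fen1* and *Rnaseh2c*. *Mcm10* read 57.7, 62.7 and 62.8 CPM in the RA libraries and 169 to 268 CPM (median 207) in the 6 ESC libraries (3.45-fold lower, adjusted p = 2.26e-12). *Mcm3* read 202, 231 and 200 CPM against 473 to 592 CPM (median 524), 2.43-fold lower (adjusted p = 4.02e-11). *Lig1* read 153, 186 and 177 CPM against 386 to 482 CPM (median 459), 2.56-fold lower (adjusted p = 5.45e-11). None of these 3 genes had an RA library inside the ESC range.

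At 72 h, 37 members fell and 5 rose, beside 40.8% of all genes lower and 33.3% higher, and the median was again -1.01, with that of all genes at -0.22. By DESeq2 32 fell and 9 rose, and with RLE scaling in edgeR 31 fell and 8 rose. All 5 MCM2-7 and all 5 ORC genes fell, with medians of -0.74 and -1.53, while *Cdc6*, the ORC partner that loads the helicase, was not called (0.12 ± 0.13), and neither was *Dbf4* (0.16). The spread within a complex was wide. It went from *Pole3* at 1.41 to *Pole* at -3.46, from *Rfc3* at 0.78 to *Rfc4* at -3.27, from *Rpa2* at 1.00 to *Rpa1* at -1.71, from *Rnaseh2c* at 2.43 to *Dna2* at -1.35 and from *Tipin* at -0.61 to *Ticrr* at -4.19. It was narrower from *Mcm4* at -0.33 to *Mcm7* at -1.42, from *Orc4* at -0.64 to *Orc2* at -1.79, from *Cdc45* at -0.76 to *Gins1* at -1.67, from *Pola2* at -1.76 to *Prim2* at -1.97, from *Pold2* at -0.63 to *Pold1* at -1.50 and from *Rrm1* at -1.01 to *Rrm2* at -1.76. *Mcm8* stood at -1.92, *Pcna* at -1.99 and *Chaf1b* at -2.16. *Mcm4*, at -0.33 ± 0.15 (adjusted p = 0.047), turned to 0.04 with RLE scaling and 0.03 by DESeq2, and *Cdc7*, not called at -0.10, to 0.28 and 0.29. *Chaf1a* was 19.4-fold lower (adjusted p = 1.69e-15), with the 3 RA values given above against 124 to 221 CPM (median 149) in 6 ESC libraries. *Pole* was 11.0-fold lower (adjusted p = 4.26e-13) against 156 to 259 CPM (median 229), and *Mcm10*, at 45.9, 56.6 and 53.4 CPM, 3.77-fold lower (adjusted p = 8.83e-13) against 156 to 251 CPM (median 214). The ranges of these 3 genes did not meet.

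The 5 members that rose at 72 h of RA were *Rnaseh2c*, *Rpa2*, *Pole3*, *Lig1* and *Rfc3*. *Rnaseh2c* was 5.41-fold higher (adjusted p = 1.28e-10) against 0 to 14.6 CPM (median 11.7) in the ESCs, the 0 being the shallow H3.3K27L library. *Pole3*, at 127, 107 and 115 CPM, was 2.67-fold higher (adjusted p = 3.02e-06) against 0 to 62.2 CPM (median 46.5). *Rpa2* was higher by a log2 fold change of 1.00 (adjusted p = 2.54e-06) against 65.1 to 133 CPM (median 113). The chromosome 8 gene *Cdt1*, the other helicase loader, was 0.91 higher on the log2 scale in the fit with that chromosome kept (adjusted p = 3.40e-06), after being 1.07 lower at 24 h.

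From ESCs to RA libraries no change in the difference between the lines was called for any member, with 1 RA library a line at each time. This contrast was not simulated, so the size of change it could miss is not known. For H3.3K27M the change in the difference from WT-H3.3 was called for 0 of 51 members, beside 0.00662% of 15108 genes, with a median of 0.16 (all genes 0.07), and for H3.3K27L also for 0, beside 0.252%, with a median of 0.16. By DESeq2, and at an unadjusted p below 0.05, the counts of members were also 0 in both. The lowest p were those of *Dbf4* (0.40 ± 0.22, adjusted p = 1) and *Dna2* (0.44 ± 0.24, adjusted p = 1) for H3.3K27M and of *Cdc6* (0.44 ± 0.23, adjusted p = 0.591) and *Pola2* (0.49 ± 0.27, adjusted p = 0.617) for H3.3K27L.

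In the OPC cultures the replication machinery differed between the lines, with higher levels in H3.3K27M at almost every step except origin recognition. Of the 50 members tested 42 rose and 1 fell, beside 25% of all 12467 genes higher and 26.5% lower, and the member median was 1.34 (2.53-fold) with that of all genes at 0.00. Of the 42, 33 were past 2-fold. DNA replication was a theme that the study itself drew from these same libraries, and also from its RA cells. The count is thus not independent evidence of its direction. *Fen1*, the flap nuclease of Okazaki fragments, did not pass the filter on low counts, with 4 to 11 counts a library. Within a Dox time, 47 of the 50 members were higher in H3.3K27M at 24 h and 48 at 72 h, but the share of all genes was not counted there.

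**Figure D3:**
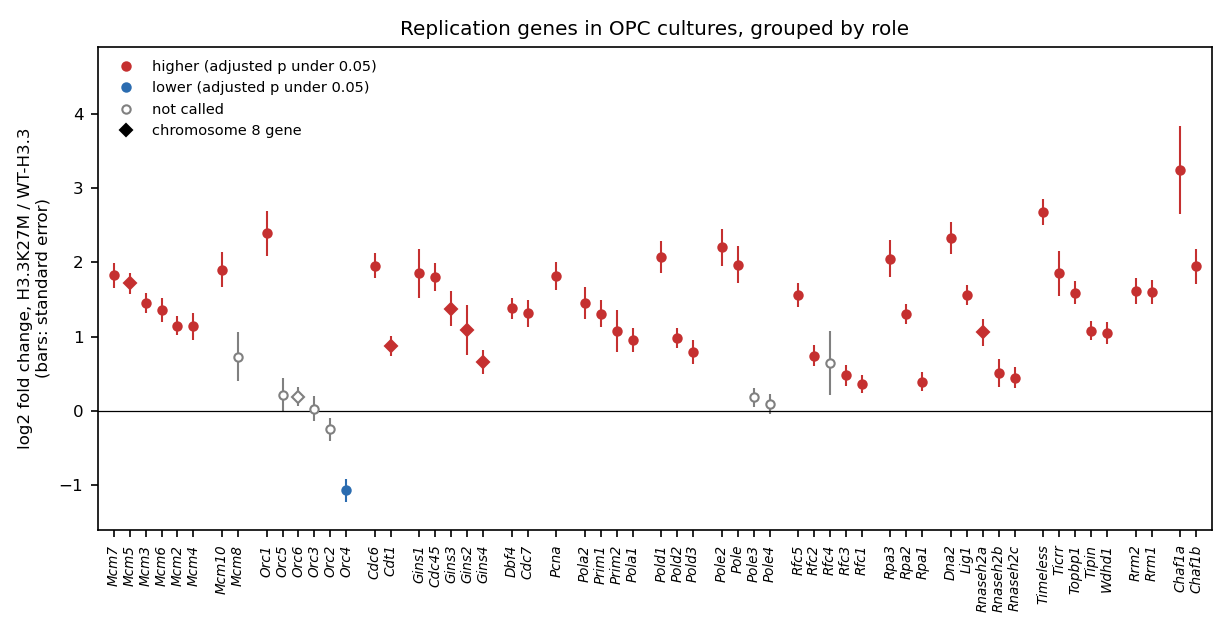
Log2 fold change of H3.3K27M over WT-H3.3 in the OPC cultures (vertical axis, points with standard errors, 2 libraries a line) for each tested member, grouped by role; filled points are called, open points are not, and diamonds are chromosome 8 genes from the fit with that chromosome kept. Nearly all groups lie above 0, while the ORC genes run from 2.39 for *Orc1* to -1.06 for *Orc4*.

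*Timeless*, which with Tipin holds the helicase and polymerases together, rose most by p. It read 9.91 and 8.25 CPM in WT-H3.3 and 55.7 and 55.5 CPM in H3.3K27M at 24 and 72 h of Dox, 6.38-fold higher (log2 2.67 ± 0.18, adjusted p = 7.29e-07). *Cdc6* read 14.8 and 17.0 CPM against 57.0 and 61.0 CPM, 3.89-fold higher (adjusted p = 3.84e-06). *Lig1* read 210 and 236 CPM against 636 and 623 CPM, 2.96-fold higher (adjusted p = 4.36e-06). These genes were picked by their low p, so that close libraries within a line and a gap between the lines follow from the choice.

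Licensing and helicase genes rose together. All 5 MCM2-7 genes outside chromosome 8 rose, from 1.14 for *Mcm4* to 1.82 for *Mcm7* (median 1.36), and *Mcm5* on chromosome 8 by 1.72 in the fit with chromosome 8 kept. *Mcm7* read 29.6 and 37.0 CPM in WT-H3.3 and 121 and 104 CPM in H3.3K27M. *Gins1* and *Cdc45*, partners of the ring in the active helicase, rose by 1.86 and 1.81, and *Gins2*, *Gins3* and *Gins4* by 1.09, 1.38 and 0.66 in the chromosome 8 fit. The kinase genes *Dbf4* and *Cdc7* rose by 1.38 and 1.32, *Cdt1* by 0.87 in the chromosome 8 fit and *Mcm10* by 1.90, from 8.00 and 12.9 CPM to 37.6 and 37.0 CPM. *Mcm8*, which acts in recombination, was at 0.73 ± 0.33 (adjusted p = 0.088) and was not called. The clamp gene *Pcna* rose by 1.82, from 20.1 and 28.9 CPM to 84.4 and 80.1 CPM.

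The ORC genes, which bind origins, did not move as a group. *Orc1* rose by 2.39 ± 0.31 (adjusted p = 8.24e-05), at 2.78 and 2.14 CPM (32 and 21 counts) in WT-H3.3 and 14.4 and 10.4 CPM in H3.3K27M. *Orc4* fell by 1.06 ± 0.15 (2.09-fold lower, adjusted p = 0.000198), at 53.2 and 52.1 CPM in WT-H3.3 and 22.6 and 25.5 CPM in H3.3K27M. *Orc4* was thus the only member tested that fell. *Orc2* (-0.24), *Orc3* (0.03), *Orc5* (0.22) and, in the chromosome 8 fit, *Orc6* (0.20) were not called, and the median of the 5 ORC genes was 0.03. Of the promoters printed above, those of *Mcm6* and *Orc1* hold E2F letters and the *Orc4* window does not. Of the 12 members with E2F letters 11 rose (median 1.51), and of the 36 tested members with an entry and without them 28 rose and 1 fell (median 1.31), so calls were frequent in both sets. The 12 include *Cdt1* and *Mcm5* and the 36 include *Gins3*, *Orc6* and *Rnaseh2a*, with values from the fit with chromosome 8 kept.

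At the fork, all 4 polymerase alpha-primase genes rose (0.96 to 1.45), as did the 3 polymerase delta genes (0.80 to 2.08, highest for the catalytic *Pold1*). The polymerase epsilon subunits split by type. *Pole* and *Pole2* rose by 1.97 and 2.20, from 4.09 and 3.77 CPM to 15.4 and 14.1 CPM for *Pole*, while *Pole3* and *Pole4* at 0.18 and 0.10 were not called. *Pole3* read 152 and 159 CPM in WT-H3.3 and 172 and 165 CPM in H3.3K27M. Of the RFC genes 4 of 5 rose, with a median of 0.64 over the 5, from 0.36 for *Rfc1* to 1.56 for *Rfc5*, and *Rfc4* (0.64 ± 0.43) was not called. All 3 RPA genes rose, from 0.40 for *Rpa1* to 2.05 for *Rpa3*.

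Genes of fragment maturation, fork stability, nucleotide supply and chromatin assembly rose as well. *Dna2* rose by 2.33, from 5.04 and 6.41 CPM to 28.2 and 26.7 CPM, and *Rnaseh2c* by 0.45. All 5 scaffold genes rose (median 1.60), with *Wdhd1* at 1.06 the lowest. *Rrm1* and *Rrm2*, the subunits of ribonucleotide reductase, rose by 1.60 and 1.61. *Chaf1b* rose by 1.95. *Chaf1a* had the largest fitted change, 3.25 ± 0.59, on 7 counts in WT-H3.3 and 47 in H3.3K27M over the 2 libraries of each line. It passed the filter on low counts only through H3.3K27M, so its call and rank depend in part on that filter. The ratio of the 47 to the 7 counts, scaled to library size, was 9.38. Its exact 95% interval of 4.21 to 24.6 is for counting error alone, in a gene picked as the largest.

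Other genes of the pathway went the same way in the OPC cultures. Of 27 tested outside the members 22 rose and 0 fell (median 1.18), beside 25% of all genes higher and 26.5% lower. They included the thymidine kinase *Tk1* (1.66), the checkpoint mediator *Clspn* (1.58), the clamp unloader *Atad5* (1.94) and the histone chaperone *Nasp* (1.44). The histone chaperone *Asf1b*, on chromosome 8 and so not among the 27, was at 1.59 in the fit with that chromosome kept. Of 20 mitosis genes 19 rose and 0 fell, with a median of 1.60, beside the same 25% and 26.5% of all genes. In H3.3K27L ESCs the same list of 29 genes tested gave 1 rise (*Top1*, 0.41) and 1 fall (*Dut*, -0.55), and mitosis genes gave none. Of all genes 3.07% were higher and 5.07% lower there.

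The OPC cultures of the lines also differed in markers of other cells. Summed over 7 fibroblast markers, WT-H3.3 held 560 and 613 CPM and H3.3K27M 23.1 and 26.1 CPM, with 6 of the 7 lower and 1 higher. The 6 extraembryonic endoderm markers summed to 112 and 153 CPM in WT-H3.3 and to 15.9 and 19.8 CPM in H3.3K27M, with *Afp* at 0 in the latter, and all 5 tested were lower. OPC markers summed to 513 and 544 CPM against 1623 and 1857 CPM and neuron markers to 609 and 639 CPM against 1711 and 1944 CPM, while oligodendrocyte markers stayed at 22.5 to 31.7 CPM with *Mag* at 0 in all 4 libraries. By the test 4 of 6 OPC markers were higher and 2 lower, 3 of 5 of neurons higher and 2 lower, 2 of 5 of astrocytes higher and 3 lower, 2 of 4 of pluripotent cells higher and 2 lower, 2 of 3 of the retinoic acid response and neural progenitors higher and 1 of 3 of oligodendrocytes higher. Among all genes 25% were higher and 26.5% lower in this comparison. The part of these other cells in the rise of the replication genes was not tested. Spearman's rho between exonic length and the OPC difference was -0.01 over 11691 genes and 0.10 over the members.

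**Figure D4:**
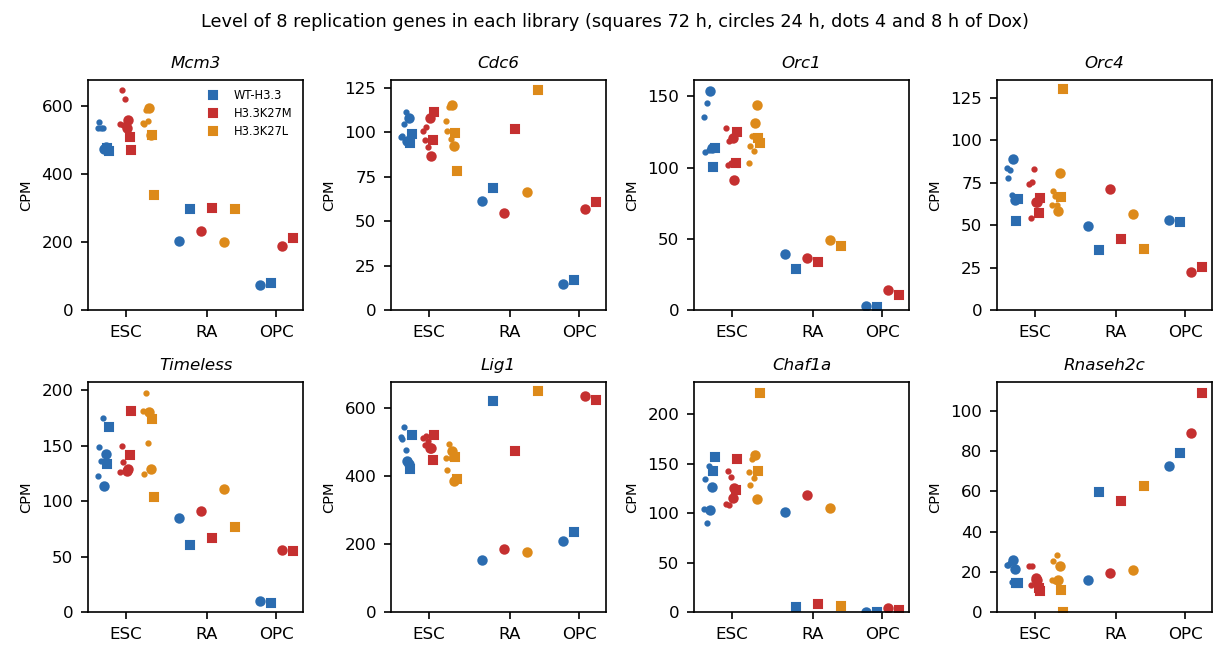
Level in CPM (vertical axes, from 0) of 8 members in each library of the 3 lines in the ESC, RA and OPC sets; each point is a library, with squares for 72 h, circles for 24 h and dots for 4 and 8 h of Dox, and GSK343 libraries are not drawn. In the OPC set *Mcm3*, *Cdc6*, *Orc1*, *Timeless* and *Lig1* are higher in H3.3K27M and *Orc4* lower, and in the RA set *Lig1* and *Rnaseh2c* rise and *Chaf1a* falls from 24 to 72 h.

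Compared with ESCs of 24 and 72 h of the same lines, the OPC cultures of both lines together had 45 of 51 members lower and 3 higher, beside 46% of all genes lower and 38.7% higher, with a member median of -2.01 (all genes -0.23). All 5 ORC genes were lower (median -1.91), all 5 MCM2-7 genes (-1.93), all 4 polymerase alpha-primase genes (-2.65) and both CAF-1 genes (-5.10), while the RFC median was -0.65. The values ran from *Mcm4* (-1.30) to *Mcm7* (-2.86), from *Orc4* (-0.78) to *Orc1* (-4.28), from *Cdc45* (-2.20) to *Gins1* (-3.40), from *Dbf4* (-0.72) to *Cdc7* (-1.19), from *Pola1* (-1.57) to *Pola2* (-3.24), from *Pold2* (0.12) to *Pold1* (-2.70), from *Pole3* (1.76) to *Pole* (-4.57), from *Rfc3* (0.19) to *Rfc4* (-4.58), from *Rpa2* (0.76) to *Rpa1* (-2.14), from *Rnaseh2c* (2.52) to *Dna2* (-3.08), from *Tipin* (-1.44) to *Ticrr* (-5.44) and from *Rrm1* (-2.01) to *Rrm2* (-2.14). *Mcm8* (-3.31), *Chaf1b* (-3.31), *Pcna* (-2.57) and *Cdc6* (-1.61) were lower too, as were *Mcm5* (-3.02) and *Gins2* (-3.33) in the chromosome 8 fit. *Orc1* fell furthest after *Chaf1a*, *Ticrr*, *Pole* and *Rfc4*. It was 19.4-fold lower (adjusted p = 1.14e-19), with the 4 OPC values given above against 91.6 to 154 CPM (median 114) in 8 ESC libraries. *Mcm10* was 9.67-fold lower (adjusted p = 1.76e-19) against 169 to 227 CPM (median 207). *Chaf1a* was 119-fold lower (adjusted p = 9.71e-21) on 3 to 31 counts in the OPC libraries, against 103 to 157 CPM (median 126). No OPC library reached the ESC range of these 3 genes.

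The 3 members that were higher in the OPC cultures than in the ESCs were *Rnaseh2c*, *Pole3* and *Rpa2*. *Rnaseh2c* read 72.4 and 78.9 CPM in WT-H3.3, 89.1 and 109 CPM in H3.3K27M and 10.6 to 26.0 CPM (median 15.4) in the ESCs, 5.74-fold higher (adjusted p = 6.04e-14). *Pole3* was 3.39-fold higher (adjusted p = 5.95e-10) against 35.2 to 67.1 CPM (median 51.4). *Rpa2* read 130 and 127 CPM in WT-H3.3 and 318 and 290 CPM in H3.3K27M, against 103 to 159 CPM (median 122), 1.70-fold higher over both lines (adjusted p = 5.07e-06), and its WT-H3.3 values lay within the ESC range. *Rfc3*, *Pold2* and *Pole4* were not called. *Lig1* was 0.24 lower over both lines together. Its OPC level in H3.3K27M exceeded that in WT-H3.3 by a log2 fold change of 1.56, so this mean describes neither line.

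The excess of H3.3K27M over WT-H3.3 was larger in the OPC cultures than in the ESCs for 36 of the 51 members and smaller for 1, beside 8.13% of all genes higher and 10.7% lower. The median change in the difference was 1.28, with that of all genes at -0.01. All 5 MCM2-7, all 4 polymerase alpha-primase and all 5 scaffold genes were among the 36, but only 1 of 5 RFC and 1 of 5 ORC genes. *Timeless* had the largest statistic (2.60 ± 0.26, adjusted p = 2.79e-08), followed by *Mcm10* (2.02 ± 0.22, adjusted p = 1.40e-07) and *Dna2* (2.17 ± 0.25, adjusted p = 3.47e-07), and *Orc4* was the member that went down (-0.98 ± 0.26, adjusted p = 0.00785). These p-values come from a fit of all 42 libraries, in which most of the replicates are ESC libraries. They measure mostly the spread between ESC replicates. The OPC cultures had only 2 libraries a line, and the RA cells 1 a line at each time.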

How the data were processed

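RNA-seq read counts per gene of 42 libraries were deposited by the authors in 3 tables (ESC, RA and OPC) of 55471 genes each. According to the authors, reads came from QuantSeq 3′ or KAPA mRNA libraries, the kit of each library is not given in the sources used here, and the submitters' processing notes name STAR 2.7.1 and the mm9 build. The other samples of the series (155 samples in all) were not used here. No 2 libraries agreed within sampling noise (chi-square per gene of at least 1.85).

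The members, the lists and the tests were chosen with earlier results of these data known. Counts were analysed with edgeR 4.0.16 (TMM scaling, filterByExpr, quasi-likelihood test) in R 4.3.3, and p-values were adjusted over all genes tested by the Benjamini-Hochberg method. Line and Dox time were terms in the ESC and RA fits, while in the OPC fit the 24 and 72 h libraries of a line were its replicates. Genes on chromosome 8 (2532 in the tables) were left out except where stated. Levels are CPM scaled by TMM over the 42 libraries. Values by library are given for up to 3 called members in each direction with the lowest adjusted p, or for the 2 with the lowest p where none was called, and subgroups by counts, median and extremes. In called members picked by p, close libraries within a group and separate ranges between groups follow in part from that choice. Other members were named for contrast within a complex after their values were seen. The fits were tested on simulated data with few genes changed and the same variability for all genes, unlike the real data. Genes changed 2-fold were called in 88% of cases for H3.3K27L ESCs (13554 genes). The share was 66% for H3.3K27L RA libraries (11794 genes) and 72% for the OPC cultures (12155 genes). Per the study's methods replicates were repeated weeks apart. All 4 OPC columns are named replicate 2 while the titles of the 72 h samples say replicate 1, so these columns were matched by line and Dox time, and whether the 24 and 72 h OPC libraries are separate repeats is not given in the sources used here. The p-values measure the spread between these libraries. RA and OPC libraries were compared with ESCs in a fit of all 42 libraries. There the p-values measure mostly the spread between ESC replicates.

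Replicate numbers of H3.3K27M and WT-H3.3 ESCs went together, since the differences between replicates 1 and 2 in these lines correlated with r from 0.615 to 0.718 at the 4 Dox times over 8128 genes. For H3.3K27L the numbers ran against those of WT-H3.3 at 4, 8 and 24 h (r of -0.605, -0.710 and -0.687) and with them at 72 h (0.269), and for GSK343 r was between -0.475 and 0.585. No label pairs these libraries, and the block was tried as numbered and, after seeing the data, with crossed numbers. The alternatives were RLE scaling, DESeq2 1.42.0, no filter on low counts, chromosome 8 kept, a replicate block, only the libraries compared, pooled Dox times in RA, ESC libraries of all Dox times, a 2-fold threshold, an offset for gene length and each library left out in turn.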

Additional observations from a re-analysis of the deposited data

Results flagged for a closer look

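In the ESCs, 24 groups of values were examined for a library far from the others of its group, and 7 had one, where chance gives about 1 in 20 groups. Of the 7, 4 were the H3.3K27L library of replicate 2 at 72 h, which holds 68378 counts. It had the lowest median member level of its group (-0.68 relative to WT-H3.3, log2) and the lowest *Mcm10* (156 CPM), *Mcm3* (338 CPM) and *Mcm6* (390 CPM). In the other 3, *Ticrr* stood highest at 319 CPM in H3.3K27M replicate 2 at 4 h, and *Wdhd1* stood highest at 162 CPM in WT-H3.3 and at 174 CPM in H3.3K27M, both in replicate 2 at 72 h.

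The effect of H3.3K27M against WT-H3.3 differed between OPC cultures and ESCs by edgeR's test of the difference itself. It did so for 37 of 51 members, beside 8.13% of all genes higher and 10.7% lower in this difference, and among the members with the lowest adjusted p in each direction the difference was 2.60 for *Timeless*, 2.02 for *Mcm10*, 2.17 for *Dna2* and -0.98 for *Orc4* on the log2 scale.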

How the results depend on the processing

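In the OPC cultures 43 members were called, and 38 to 41 when any single library was left out, with medians of 1.22 to 1.43 (1.29 without a filter). With the replicate block 44 were called (43 higher, 1 lower), the number of an OPC library in the sample titles being also its Dox time. The ESC and RA differences between lines rested on few calls. For H3.3K27L in ESCs the count went from 2 to 1 without a filter and with a length offset, 5 with chromosome 8 kept, 0 with only the libraries compared, 0 at the 2-fold threshold and 6 with crossed replicate numbers (4 higher, 2 lower). The block as numbered gave 2, and it changed no other call count among the members in ESCs. The crossing, the length offset in ESCs and OPC cultures, and the fits without the 2 shallowest libraries were chosen after seeing the data. Leaving out 1 library gave 1 to 2 calls and medians of -0.17 to -0.014, with 1 call without replicate 1 of WT-H3.3 at 4, 8, 24 or 72 h or without H3.3K27L replicate 2 at 8 h, and 2 others, both lower, without H3.3K27L replicate 1 at 72 h. GSK343 gave 1 call without a filter. In the RA libraries, H3.3K27L against WT-H3.3 gave 2 calls without a filter, 0 with Dox times pooled, by DESeq2 or at 2-fold, and 0 to 4 with 1 library left out (medians 0.085 to 0.18), the 4 without WT-H3.3 of 24 h, 2 without that of 72 h or without H3.3K27M of 72 h and 0 without H3.3K27M of 24 h. H3.3K27M against H3.3K27L gave 2 with chromosome 8 kept, 3 with the length offset, 0 with Dox times pooled, by DESeq2 or at 2-fold, and 0 to 7 with 1 library left out (medians -0.094 to 0.0045), the 7 (2 higher, 5 lower) without either WT-H3.3 library and 0 without either H3.3K27M library or H3.3K27L of 24 h. Where a group kept 1 library, it was assumed to vary like the others. The RA median of H3.3K27M was 0.034 to 0.16 with 1 library left out. From 24 to 72 h of RA 16 members passed at 2-fold, and the median was 0.028 without a filter, 0.24 with the length offset and -0.00019 to 0.28 with 1 library left out. Between RA and ESC libraries 27 members passed at 2-fold at 24 h, with medians of -1.14 with the length offset and of -1.14 to -0.98 with 1 left out. At 72 h the median was -0.64 with RLE scaling, -0.66 by DESeq2, -0.85 with the offset and -1.09 to -0.87 with 1 left out, and between OPC cultures and ESCs it was -1.71 with RLE and by DESeq2, -1.76 with the offset and -2.17 to -1.94 with 1 left out. RLE scaling moved the median of all genes by 0.11 to 0.15 in the comparisons of RA with ESC libraries. The median change in the line difference was 0.036 with the offset for H3.3K27L in RA (0.12 to 0.41 with 1 left out) and 1.45 for the OPC cultures.

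Of 1368 values of single genes with 1 library left out 1329 kept direction and call, 33 lost the call, 2 gained it and 4 reversed, and of 912 under other settings 860, 27, 15 and 10 did. *Rnaseh2c* at 24 h of RA against ESCs (-0.04) turned to 0.047 with RLE, 0.046 by DESeq2, 0.11 with all Dox times and 0.35 with the offset, and ran from -0.16 to 0.050 with 1 library left out, above 0 without WT-H3.3 RA of 24 h, ESC WT-H3.3 replicate 1 or ESC H3.3K27L replicate 2 of 24 h. At 72 h *Cdc7* (-0.10) turned to 0.28 with RLE, 0.29 by DESeq2, 0.17 with all Dox times and 0.14 with the offset, *Mcm4* (-0.33) to 0.043 with RLE and 0.033 by DESeq2, and *Cdc6* (0.12) ran from -0.046 without H3.3K27M RA of 72 h to 0.39 without WT-H3.3 RA of 72 h. The cause of these changes was not tested. With 68378 counts the shallowest library holds few counts of any member, and the 2 libraries a line in the OPC cultures limit single genes. A 2-fold change in the line difference against ESCs was called in 6% of simulated cases (14144 genes). The simulation changed far fewer genes than the 2850 of 15108 called in the data and gave all genes the same variability. Its share therefore need not hold for the data.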
